A study of Homo sapiens with 4 samples.

Results

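The transcripts described here are 6 messengers and 2 ribosomal RNAs (rRNAs) encoded by mitochondrial DNA, 8 of the 18276 genes listed in the deposited tables, chosen by symbol. The messengers are MT-CO1, MT-CO2 and MT-CO3, which encode the core subunits of cytochrome c oxidase (complex IV), MT-CYB, which encodes cytochrome b of complex III, and MT-ATP6 and MT-ATP8, which encode membrane subunits of ATP synthase. The rRNAs are MT-RNR1 of the small and MT-RNR2 of the large mitochondrial ribosomal subunit. RNA recovered with an SF3B6 antibody after ultraviolet irradiation (SF3B6 IP, 2 libraries) was set against input RNA of the same kind of lysate (Input, 2 libraries). All 4 libraries are titled MDA-MB-231, an established human triple-negative breast cancer line, although the cell line entries of 3 of them give another last digit. The titles were followed. The labels name no genetic change or drug in either group. Per the labels' protocols, lysates were treated with DNase and with micrococcal nuclease. An IgG control is named in the protocol but is not analysed here, so RNA recovered without regard to SF3B6 is not separated from RNA bound to it. The series text calls the libraries of each group biological replicates.

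Human mitochondrial DNA is copied into long RNAs that hold many genes. Transfer RNAs (tRNAs) lie between most of them and are cut out, which releases the messengers and both rRNAs. These genes have no introns and are not known to pass through the nuclear spliceosome. SF3B6 belongs to SF3b, a complex of the nuclear U2 particle, and sits close to the branch point of introns. The rRNAs are usually the most abundant products of mitochondrial DNA.

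In the RefSeq annotation of GRCh38.p14 all 8 genes lie on the mitochondrial chromosome, and each is listed as an uninterrupted interval, given here by its first and last base. In map order, MT-RNR1 spans 648 to 1601 and MT-RNR2 spans 1671 to 3229. MT-CO1 follows at 5904 to 7445, then MT-CO2 at 7586 to 8269. MT-ATP8 spans 8366 to 8572 and MT-ATP6 spans 8527 to 9207, so they share 46 bases. MT-CO3, at 9207 to 9990, shares 1 base with MT-ATP6. MT-CYB stands apart from the others, at 14747 to 15887. How reads in the shared bases were assigned is not stated.

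Depth was low and differed between the groups. Counts in genes came to 55492 and 30431 in SF3B6 IP 1 and 2, against 317190 and 519836 in Input 1 and 2. Depth and IP cannot be told apart, since each IP library was shallower than either input. The libraries of a group differed by more than sampling noise, with a chi-square over degrees of freedom of 3.13 across 976 genes in IP and 1.59 across 7338 genes in input. Of 10 markers of MDA-MB-231 set for a check of the label, all 10 were listed, with summed CPM of 6449 to 6738 in IP and 8426 to 8795 in input. CPM are counts scaled to a library total of 1e+06, here after trimmed mean of M-values (TMM) scaling. Of the 10, AXL had the most counts, at 2004 to 2136 CPM in IP and 3064 to 3133 CPM in input. ZEB1 had the fewest, at 0 to 44.0 CPM in IP and 17.6 to 22.4 CPM in input. Of 7 luminal breast markers 4 were listed, ESR1 and PGR not among them, at a summed 174 to 198 CPM in IP and 292 to 344 CPM in input. Most of this was ERBB2, at 131 to 154 CPM in IP and 267 to 300 CPM in input. Blood cell markers summed to 0 to 88.1 CPM in IP and 14.3 to 31.7 CPM in input, and fibroblast and endothelial markers to 43.6 to 44.0 CPM in IP and 49.3 to 55.0 CPM in input. Since these are bulk lysates, a change in the number of cells of a type and a change in RNA per cell cannot be told apart.

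All 6 messengers were higher in SF3B6 IP than in input, while neither rRNA passed the test. The log2 fold changes of the messengers ran from 0.93 for MT-CO1 to 2.15 for MT-ATP8 (edgeR's quasi-likelihood test, Benjamini-Hochberg adjusted p under 0.05 over 3668 genes). Among all genes tested, 2.70% were called higher and 1.36% lower. All 8 members passed the filter on low counts. With TMM scaling and the default filter, 0 of the 8 were called lower by edgeR, and 0 were lower at an unadjusted p under 0.05. DESeq2 called 2 of the 6 messengers higher, MT-CO1 (adjusted p = 0.0498) and MT-ATP8 (0.00563), with 0.173 to 0.572 for the other 4, and neither rRNA. Of the 2032 genes to which DESeq2 gave an adjusted p, it called 37 higher and 2 lower. No fit that left out 1 library kept all 6 calls, each over another set of genes, and some fold changes depended on SF3B6 IP 1. Without it, log2 fold changes were -0.016 for MT-ATP6, 0.27 for MT-CO2 and 0.50 for MT-CO1. MT-CYB was then at 0.80, MT-CO3 at 1.16 and MT-ATP8 at 1.85. The calls also rest on the scaling. With the library totals behind the deposited FPKM table none passed in edgeR and 4 of the 6 were below 0. On that scale 2098 of the 3668 genes tested were called lower, both rRNAs among them, and 17 higher.

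**Figure D1:**
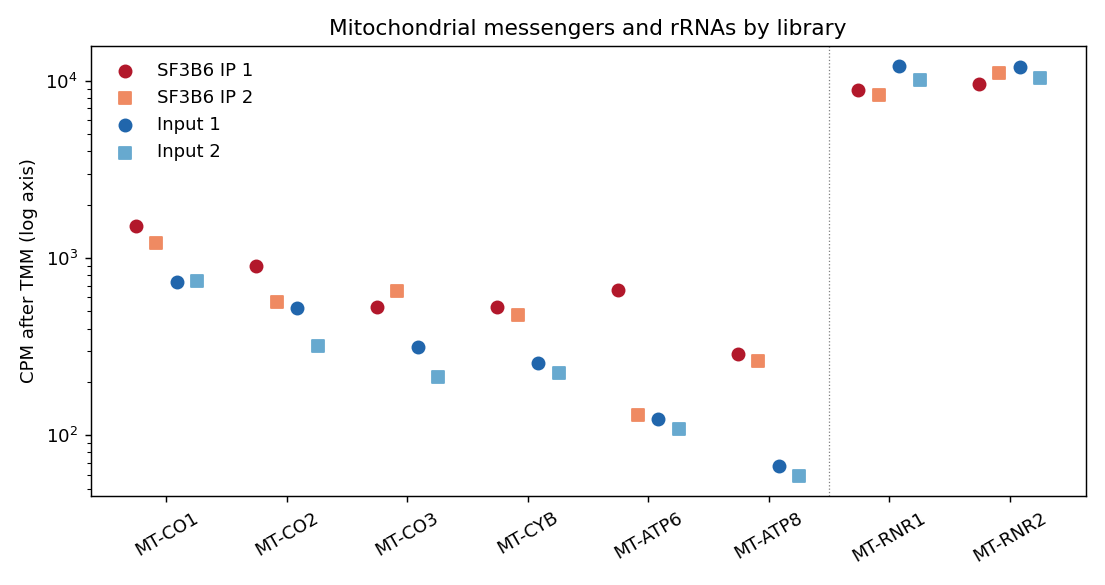
CPM after TMM (log axis) of the 6 messengers and, right of the dotted line, the 2 rRNAs, each point being 1 library. Both IP libraries lie above both inputs for each messenger, with MT-ATP6 in SF3B6 IP 2 (131 CPM) close to Input 1 (123 CPM), while the rRNAs do not lie higher in IP.

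Complex IV passes electrons to oxygen, and its 3 mitochondrially encoded subunits form the catalytic core. MT-CO1, the subunit that holds the oxygen-reducing site, had 69 and 28 counts in SF3B6 IP 1 and 2, against 209 and 364 in Input 1 and 2. Scaled, these were 1519 and 1220.1 CPM in IP and 735 and 742 CPM in input. The inputs were close to each other and both IP libraries were above them. The log2 fold change was 0.93 ± 0.19 (SE), 1.91-fold higher (edgeR adjusted p = 0.00243).

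MT-CO2, the subunit that accepts electrons from cytochrome c, had 41 and 13 counts in IP against 149 and 157 in input, or 903 and 566 CPM in IP against 524 and 320.0 CPM in input. SF3B6 IP 2 was near Input 1, and the groups did not overlap by a narrow margin. Its log2 fold change of 0.97 ± 0.28 (edgeR adjusted p = 0.0402) had the largest adjusted p of the 6 calls and did not pass with a replicate block (0.113).

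MT-CO3, the third core subunit, had 24 and 15 counts in IP against 90 and 104 in input. These were 528 and 654 CPM in IP against 317 and 212 CPM in input, and SF3B6 IP 2 was the higher IP library here, unlike for the other complex IV messengers. The log2 fold change was 1.18 ± 0.30 (edgeR adjusted p = 0.0180).

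MT-CYB, which encodes the subunit of complex III where ubiquinol is oxidised, had 24 and 11 counts in IP against 73 and 110 in input. At 528 and 479 CPM in IP against 257 and 224 CPM in input it averaged 504 ± 34.7 CPM in IP and 241 ± 23.1 CPM in input (SD, n = 2 libraries each). Both spreads were small against the difference between the groups. On 24 and 11 counts in IP, the SD of 2 libraries can fall below counting error. The log2 fold change was 1.11 ± 0.29 (edgeR adjusted p = 0.0199; 0.0557 with a replicate block).

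The messengers of ATP synthase had the highest log2 fold changes of the 8, on the fewest counts. MT-ATP8, a small subunit at the membrane base of the enzyme, had 13 and 6 counts in IP against 19 and 29 in input. At 286 and 261 CPM in IP against 66.8 and 59.1 CPM in input, both IP libraries were above both inputs. On 13 and 6 counts, the closeness of the IP libraries does not show precision. Its log2 fold change of 2.15 ± 0.46 (SE), or 4.45-fold, passed the test (edgeR adjusted p = 0.00302). It did not pass without Input 1 (0.540) or without Input 2 (0.599), at log2 fold changes of 2.26 and 2.06.

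MT-ATP6, the subunit that lines the proton path beside the rotating ring, had 30 and 3 counts in IP against 35 and 53 in input. SF3B6 IP 1 stood at 661 CPM and SF3B6 IP 2 at 131 CPM, against 123 and 108 CPM in Input 1 and 2. Its high IP value thus came from SF3B6 IP 1, and SF3B6 IP 2 was at the level of the inputs. The log2 fold change was 2.07 ± 0.39 (edgeR adjusted p = 0.000647), but -0.016 without SF3B6 IP 1. The estimate of spread in this fit borrows from all genes. The SE is thus not set by the scatter of MT-ATP6 alone, whose IP libraries were at 396 ± 375 CPM (SD, n = 2). MT-ATP8, which sits on the same messenger in human cells, did not show this split between the IP libraries.

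MT-RNR1 had 402 and 190 counts in IP against 3434 and 4983 in input, or 8852 and 8279 CPM in IP against 12082 and 10157 CPM in input. Both IP libraries lay below both inputs, as they did for 28.5% of genes tested, and the log2 fold change of -0.37 ± 0.23 did not pass (edgeR adjusted p = 0.443). MT-RNR2 had 439 and 253 counts in IP against 3424 and 5077 in input, or 9666 and 11024 CPM in IP against 12047 and 10349 CPM in input. Its groups overlapped, and the log2 fold change was -0.12 ± 0.23 (adjusted p = 0.884). MT-RNR2 was near the median of all tested genes, which was -0.06, and MT-RNR1 lay below it. For 6 of 6 messengers the IP libraries both exceeded both inputs, against 20.9% of genes tested.

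A change of library scale shifts the log2 fold changes of all genes by nearly the same amount, so it bears on their sign and calls and not on their order. The sign of 4 messengers did not hold. With upper quartile scaling 3 of the 6 messengers passed (MT-CO1, MT-ATP6 and MT-ATP8) and with plain library totals 2 (MT-ATP6 and MT-ATP8), all 6 staying above 0. Of the 3668 genes tested, 67 and 56 were called higher on these scales, in that order. The FPKM totals, in units of 1e+06 0.758 and 0.501 in IP against 2.12 and 2.55 in input, are larger than the counts in genes, and what they count is not stated in the sources used here. Gene counts were 7.32% and 6.07% of these totals in IP against 15.0% and 20.4% in input, so this scale puts the median of all tested genes at -1.65. On it MT-CO1, MT-CO2, MT-CO3 and MT-CYB were at -0.70, -0.68, -0.43 and -0.51, and MT-ATP6 and MT-ATP8 at 0.39 and 0.54. MT-RNR1 and MT-RNR2 were then among the 2098 of 3668 genes called lower, at -1.97 and -1.73 (edgeR adjusted p = 1.54e-05 and 9.05e-05).

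**Figure D2:**
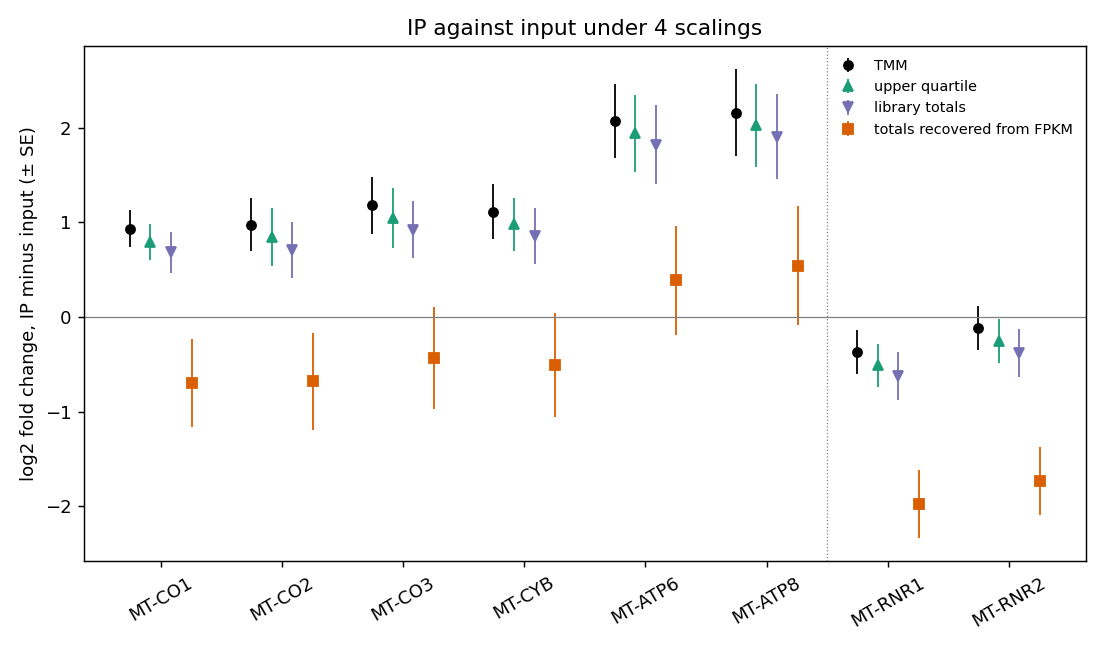
Log2 fold change, IP minus input, with SE, for each member under 4 scalings of the same counts. The scalings shift all 8 members together by construction, and with the totals recovered from FPKM 4 messengers lie below 0.

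The ratio of messengers to rRNA within a library needs no scale between libraries. Summed over 6 messengers and 2 rRNAs, there were 201 and 76 messenger counts on 841 and 443 rRNA counts in SF3B6 IP 1 and 2, against 575 and 817 on 6858 and 10060 in Input 1 and 2. That is 23.9 (exact 95% interval 20.4 to 27.9) and 17.2 (13.3 to 21.9) messenger counts per 100 rRNA counts in the IP libraries. In the inputs it is 8.38 (7.69 to 9.13) and 8.12 (7.55 to 8.72). The inputs were alike and the lowest IP interval ends above the highest input interval. These intervals treat reads as independent and leave out variation between libraries. Reads without molecular identifiers are not independent molecules, so the intervals can be too narrow. The group means were 20.5 ± 4.77 in IP and 8.25 ± 0.186 in input (SD, n = 2 libraries each), a 2.49-fold difference. No p is given for this sum, and an exact permutation test of 2 against 2 libraries cannot go below 0.333.

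**Figure D3:**
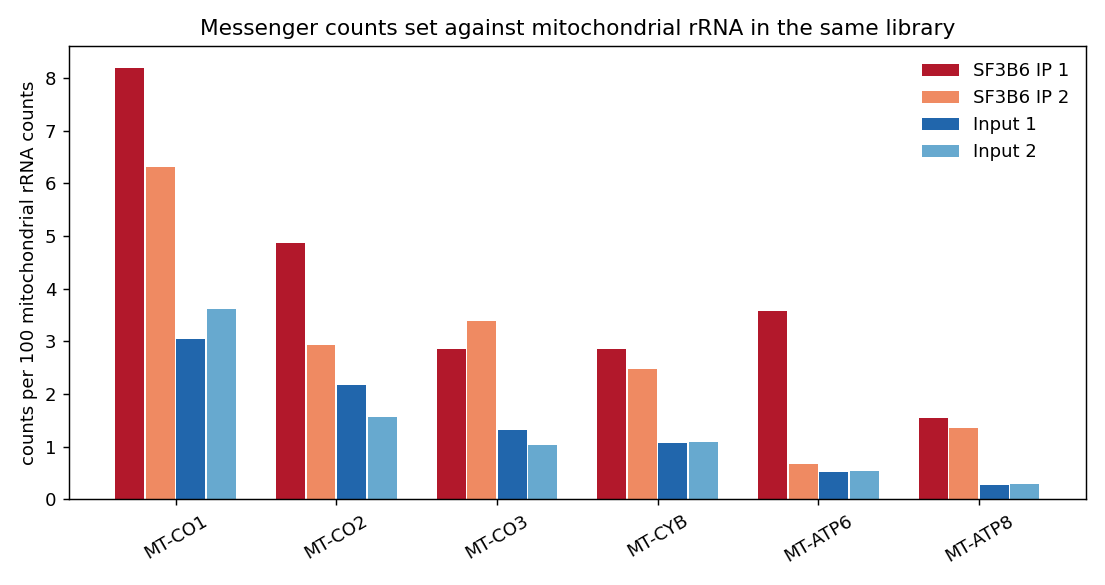
Counts of each messenger per 100 counts of MT-RNR1 and MT-RNR2 together, each bar being 1 library. The IP bars are above the input bars for all 6 messengers, and for MT-ATP6 the bar of SF3B6 IP 2 (0.677) is barely above Input 2 (0.527).

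Each messenger was also tested against mitochondrial rRNA, with the summed rRNA count as the library size in a fit over all genes. The counting error of the rRNA sum itself is not part of that fit. All 6 messengers passed, where 3.38% of genes other than the rRNAs were called higher and 0.164% lower. The change relative to rRNA was 2.37 ± 0.51 (log2, SE) for MT-ATP8 and 2.25 ± 0.41 for MT-ATP6 (edgeR adjusted p = 0.000274 and 3.07e-06). It was 1.39 ± 0.36 for MT-CO3, 1.33 ± 0.37 for MT-CYB, 1.15 ± 0.32 for MT-CO2 and 1.15 ± 0.29 for MT-CO1 (adjusted p = 0.00607, 0.0151, 0.0144 and 0.00358). The median of all tested genes on this scale was 0.17. Each of the 6 passed with MT-RNR1 alone, with MT-RNR2 alone and with a replicate block. These fits called 151, 103 and 100 of 3668 genes higher, in that order. With the block, MT-CO2 was just under the threshold (edgeR adjusted p = 0.04997). Without SF3B6 IP 1 all 6 stayed above 0, from 0.38 for MT-ATP6 to 2.25 for MT-ATP8. Without SF3B6 IP 2 the 6 ran from 1.29 for MT-CO3 to 2.77 for MT-ATP6. They ran from 1.03 (MT-CO1) to 2.33 (MT-ATP8) without Input 1, and from 0.91 (MT-CO2) to 2.38 (MT-ATP8) without Input 2. None of these fits kept all 6 calls, and each tested another set of genes.

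The mitochondrial share of all gene counts was about the same in both groups, while its make-up was not. Rows on the mitochondrial chromosome held 2.30% and 2.09% of gene counts in IP against 2.56% and 2.27% in input. Within them, the 2 rRNAs took 65.9% and 69.8% in IP (Wilson 95% intervals 63.3 to 68.5 and 66.1 to 73.2) against 84.5% and 85.1% in input (83.7 to 85.3 and 84.5 to 85.7). The 6 messengers took 15.8% and 12.0% in IP (13.9 to 17.9 and 9.67 to 14.7) against 7.09% and 6.91% in input (6.55 to 7.67 and 6.47 to 7.38). The 7 messengers of complex I, the first enzyme of the respiratory chain, took 17.2% and 16.7% in IP against 6.78% and 6.74% in input. The tRNAs took 1.10% and 1.57% in IP against 1.59% and 1.23% in input, which overlap.

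**Figure D4:**
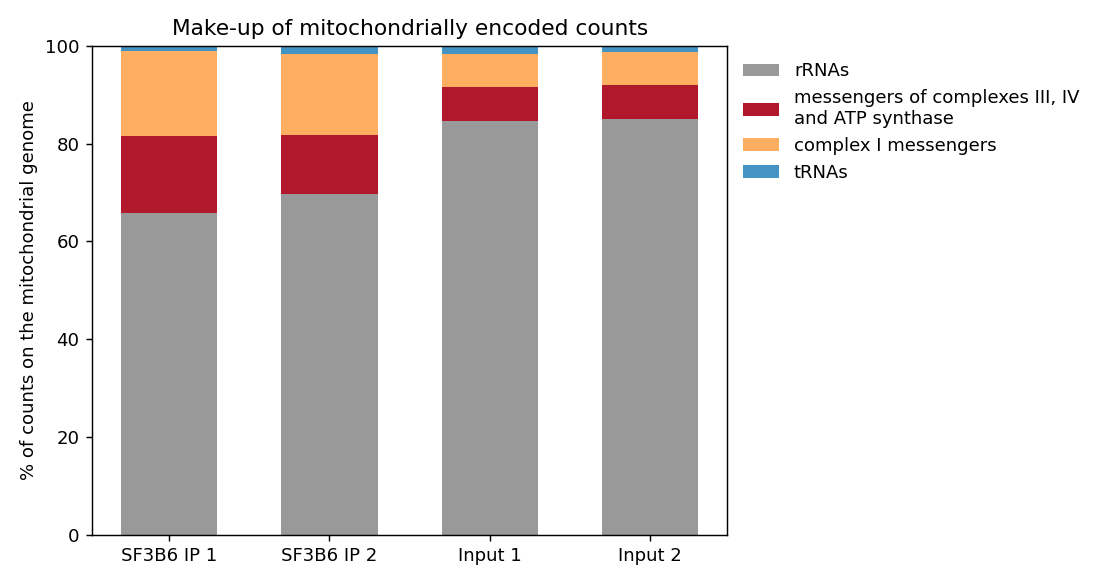
Share of the counts on the mitochondrial chromosome taken by rRNAs, by the 6 messengers, by complex I messengers and by tRNAs, in each library. The rRNA part is 65.9% and 69.8% in the IP libraries and 84.5% and 85.1% in the inputs, and both messenger parts are larger in IP.

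The make-up within the 6 messengers was compared as each one's share of their summed counts. MT-CO1 made up 34.3% and 36.8% of their counts in IP against 36.3% and 44.6% in input, the largest share in each library. MT-ATP8 made up 6.47% and 7.89% in IP against 3.30% and 3.55% in input, so both IP libraries were above both inputs, with Wilson intervals of 3.82 to 10.7 and 3.67 to 16.2 in IP that overlap those of the inputs (2.13 to 5.10 and 2.48 to 5.05). MT-ATP6 made up 14.9% (10.7 to 20.5) in SF3B6 IP 1 and 3.95% (1.35 to 11.0) in SF3B6 IP 2, against 6.09% (4.41 to 8.35) and 6.49% (4.99 to 8.39) in input. The interval of SF3B6 IP 1 lay above those of both inputs and reached that of SF3B6 IP 2 at its edge. The shares of the other 3 messengers overlapped between the groups. MT-CO2 had 20.4% and 17.1% in IP against 25.9% and 19.2% in input. MT-CO3 had 11.9% and 19.7% in IP against 15.7% and 12.7% in input, and MT-CYB had 11.9% and 14.5% in IP against 12.7% and 13.5% in input.

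Levels of different genes can be compared per length, for which the deposited FPKM values (counts per kilobase of gene and per 1e+06 of a library total) were used. MT-RNR1 was the highest member in each library, at 556 and 397 FPKM in IP against 1697 and 2051 FPKM in input. MT-RNR2 was next, at 372 and 324 FPKM in IP against 1035 and 1279 FPKM in input. MT-RNR1 stood above MT-RNR2 by 1.50-fold and 1.23-fold per length in IP against 1.64-fold and 1.60-fold in input. The rRNAs were well above any messenger in all 4 libraries.

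Messengers were also set side by side per length. In the inputs MT-CO2 (103 and 90.1 FPKM) and MT-CO1 (63.9 and 92.7 FPKM) led and changed places between the libraries, so that they do not differ beyond their spread. MT-CO3 (54.1 and 52.1 FPKM) and MT-ATP8 (43.3 and 55.0 FPKM) came next and also changed places. MT-CYB (30.2 and 37.9 FPKM) and MT-ATP6 (24.2 and 30.6 FPKM) were lowest, in that order in both inputs, though their ranges overlap. In the IP libraries MT-ATP8 had 82.9 and 57.8 FPKM, on 13 and 6 counts, MT-CO2 had 79.1 and 37.9 FPKM, MT-CO1 had 59.05 and 36.2 FPKM and MT-CO3 had 40.4 and 38.2 FPKM. MT-CYB had 27.8 and 19.2 FPKM in IP, and MT-ATP6 had 58.1 and 8.79 FPKM. The order below MT-ATP8 changed between the IP libraries, and the counts are too few to rank the messengers in IP. MT-ATP8 stood above MT-ATP6 per length by 1.43-fold and 6.58-fold in IP against 1.79-fold and 1.80-fold in input.

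Nuclear copies of mitochondrial sequence can take reads from these genes, and how the authors treated such reads is not stated. A block of long copies lies on chromosome 1, with MTCO1P12 at 631074 to 632616, MTCO2P12 at 632757 to 633438 and MTATP6P1 at 633696 to 634376. Of 36 such copies set for this check, 8 were listed, none passed the filter, and together they held 14 and 1 counts in IP against 11 and 31 in input. MTATP6P1 had 6 and 1 counts in IP against 5 and 12 in input, so SF3B6 IP 1 was the higher IP library here as for MT-ATP6. MTCO2P12 had 3 and 0 counts in IP against 0 and 1 in input, and MTCO1P12 had 2 and 0 in IP against 2 and 4 in input. Adding the copies of these messengers and of MT-RNR2 to the sums moved the log2 difference of the messenger to rRNA ratio to 1.32, against 1.30 without them.

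Of the other mitochondrially encoded genes, 4 of the 7 complex I messengers were higher in IP (MT-ND2, MT-ND3, MT-ND4 and MT-ND5), where edgeR called 2.70% of all genes tested higher. DESeq2 called 3 of the 7, where it called 37 genes higher and 2 lower of 2032 with an adjusted p. The median log2 fold change was 1.39 over the 7, against -0.06 over all genes tested. With the FPKM totals these medians were -0.24 and -1.65. MT-ND3, with 11 and 7 counts in IP against 13 and 17 in input, met the filter on low counts only through the IP libraries. Its call and its value in the median thus partly follow from the filter. Of 22 tRNA genes 12 were listed and 2 tested, and neither was called by edgeR (0 at an unadjusted p under 0.05; DESeq2 gave 1 an adjusted p and did not call it). MT-TH, the tRNA of histidine, had 7 and 6 counts in IP against 83 and 89 in input (log2 fold change -0.23, edgeR adjusted p = 0.884). MT-TM, the tRNA of methionine, had 2 and 1 counts in IP against 22 and 29 in input.

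The nuclear genes for the partner subunits of the same enzymes were not called in either direction by edgeR, with 0 at an unadjusted p under 0.05. DESeq2 called 0 of the 4 to which it gave an adjusted p. In complex III, CYC1, which encodes cytochrome c1, was the 1 tested gene of 9, with 14 and 1 counts in IP against 42 and 74 in input (log2 fold change 0.55, edgeR adjusted p = 0.610; -1.10 with the FPKM totals). In complex IV 2 of 12 were tested. COX6A1 had 11 and 6 counts in IP against 77 and 135 in input (-0.14, 0.919) and COX8A had 1 and 3 counts in IP against 41 and 60 in input (-1.15, 0.424). In ATP synthase 3 of 18 were tested, with a median log2 fold change of -0.42. The most counted were ATP5F1D (-0.42, adjusted p = 0.813) and ATP5F1A (-0.89, 0.613), of the rotor stalk and the catalytic head. Counts were too low to detect a small change in any of these genes.

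Genes whose profile over the 4 libraries was closest to that of the summed messengers were sought among 2048 nuclear genes with a mean CPM of at least 100. The measure was the Euclidean distance between log2 CPM, each minus its own mean. The 5 nearest were HNRNPF (distance 0.05), MAFK (0.15), SPTBN5 (0.18), ZGPAT (0.19) and ANXA2 (0.21). Among these, MAFK had 24 and 8 counts in IP against 63 and 92 in input (log2 fold change 1.22, edgeR adjusted p = 0.0189), and ZGPAT had 24 and 11 in IP against 69 and 100 in input (1.22, 0.0115). HNRNPF, SPTBN5 and ANXA2 did not pass (adjusted p = 0.177, 0.113 and 0.0553). Nearest to the summed rRNAs were PTPRJ (distance 0.06), BAP1 (0.11) and LEMD2 (0.11), with adjusted p of 0.851, 0.859 and 0.768 in the edgeR fit. These distances describe 4 libraries that share their depth and group. Since the genes were picked by these same profiles, their fold changes follow from the choice, and their adjusted p are no separate test.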

How the data were processed

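Per the file names, the authors deposited read counts per gene, not normalized, and FPKM of the same genes, in 2 SF3B6 IP and 2 Input libraries. Per the submitters' processing notes HISAT2, HOMER and hg38 were used, with no role or version. The sources used here do not give the counter, the strand setting or the treatment of multi-mapping reads. Library totals behind the deposited FPKM values were recovered from counts, FPKM and RefSeq lengths of members with at least 20 counts (7, 3, 7 and 8 members).

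Counts were compared with edgeR 4.0.16 (quasi-likelihood test; R 4.3.3) over 3668 genes kept by its default filter, with TMM factors of 0.968, 0.860, 1.06 and 1.13, group as the term and Benjamini-Hochberg adjustment at 0.05. Log2 fold changes are IP minus input. Each SE was worked back as the absolute log2 fold change over the square root of the F statistic of the edgeR test. It is approximate, and unstable for small changes. Alternatives were DESeq2 1.42.0, limma 3.58.1 on log2(FPKM + 1) and log2(FPKM + 0.1), other scalings and filters, each library left out and a replicate block. Intervals are at 95%, treat reads as independent and leave out variation between libraries.

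The members, gene lists and rule for named genes were chosen with earlier results of these data known. The rule took all 8 members, the complex I messengers, the 2 most counted and any called genes of each list, and the 5 and 3 nearest profiles. Marker genes are given as sums, with the most and least counted MDA-MB-231 marker and the most counted luminal marker. The same-numbered libraries are not stated to be pairs.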

Additional observations from a re-analysis of the deposited data

How the results depend on the processing

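The main setting called 6 messengers higher, and 99 genes higher and 50 lower of 3668 tested. Upper quartile scaling called 3 messengers (67 genes higher and 69 lower) and library totals 2 (56 and 90). No filter called 2, and both rRNAs lower (50 and 163 of 18276 genes), and DESeq2 called 2 (37 and 2 of 2032). TMM factors over all rows before the filter, an alternative chosen after seeing the data, called 2 messengers higher and 1 rRNA lower (47 and 244 genes), with the median of all genes at -0.53. The FPKM totals called 0 messengers higher and 2 rRNAs lower (17 and 2098 genes), limma on log2(FPKM + 1) likewise 0 and 2 (25 and 2548) and with a pseudocount of 0.1 also 0 and 2 (25 and 1865). The share of calls that were higher came to 0.804% (FPKM totals), 16.2% (TMM over all rows), 38.4% (library totals), 49.3% (upper quartile) and 66.4% (main). A minimum of 50 counts in 2 libraries gave 80 genes higher and 25 lower of 1115 tested, and 4 of the 4 messengers still tested were called. RLE factors and TMM without mitochondrial rows called all 6, with 116 and 98 genes higher and 53 and 47 lower.

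Leaving out 1 library gave 0 to 4 messengers called (0 without SF3B6 IP 1, 4 without SF3B6 IP 2, 3 without Input 1, 1 without Input 2), with 26 to 94 genes higher and 5 to 70 lower. Relative to mitochondrial rRNA it gave 0 to 4. The lone library of a group is then assumed to vary like the other group. With a replicate block 4 messengers passed (not MT-CO2 and MT-CYB), with 68 genes higher and 22 lower. Deviations of same-numbered libraries had a correlation of 0.00 across 3668 genes. With 2 pairs and few IP counts in most genes, this cannot decide whether the numbers pair.

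Signs turned in these cases. With the FPKM totals MT-CO1, MT-CO2, MT-CO3 and MT-CYB were at -0.70, -0.68, -0.43 and -0.51. With limma on log2(FPKM + 1) these were at -0.72, -0.80, -0.43 and -0.53 and MT-ATP6 at -0.23, and with a pseudocount of 0.1 at -0.73, -0.81, -0.43, -0.55 and -0.26. Leaving out each library, MT-ATP6 ran from -0.016 (without SF3B6 IP 1) to 2.44 and MT-RNR2, not called, from -0.31 to 0.057 (without Input 1). MT-RNR2 was at 0.10 with a minimum of 50 counts. The log2 difference of the messenger to rRNA ratio, 1.30, ran from 1.06 to 1.53 over libraries left out and from 1.17 to 1.52 over other sums. Apart from what the alternatives' own construction changes (scale, genes tested, samples), the cause was not tested. Depth limits each IP value, with 201 and 76 messenger counts in SF3B6 IP 1 and 2, against 575 and 817 in Input 1 and 2.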

Other observations

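Genes for making and handling mitochondrial RNA were not called in either direction by edgeR (1 at an unadjusted p under 0.05) or, for the 3 with an adjusted p, by DESeq2. Of 25 listed for this check 6 were tested, with a median log2 fold change of 0.79, against -0.06 over all genes tested. With the FPKM totals these medians were -0.80 and -1.65. GRSF1 (3 and 3 counts in IP against 15 and 25 in input) and DAP3 (3 and 3 against 12 and 16) met the filter only through the IP libraries. The median of the 6 thus rests in part on genes that the filter kept for their IP counts. FASTK, a founding member of a family of mitochondrial RNA-binding proteins, had 24 and 7 counts in IP against 68 and 122 in input (log2 fold change 0.88 ± 0.30 SE, edgeR adjusted p = 0.110). POLRMT, the mitochondrial RNA polymerase, had 12 and 2 counts in IP against 69 and 91 in input (-0.02 ± 0.43, 0.992).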
